A study of Mus musculus with 12 samples.

Results

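The 10 genes described here encode 3 keratins (*Krt8*, *Krt18*, *Krt23*), 3 α-tubulins (*Tuba1a*, *Tuba1b*, *Tuba1c*) and 4 β-tubulins (*Tubb2a*, *Tubb2b*, *Tubb5*, *Tubb6*), and were taken by symbol from the 24411 genes of a liver RNA-seq count table. All 10 passed the filter on low counts, as did 13922 genes in all. The livers came from C57BL/6 mice at 3 months of age, with 3 mice per genotype. Every genotype was homozygous for the floxed *Atg7* allele, *Atg7*flox/flox, and *Atg7*flox/flox without Cre served as control (cont.). *Atg7*-KO mice also carried Alb-*Cre*, in which the albumin promoter drives Cre in hepatocytes and removes *Atg7*, a gene needed for autophagy, from these cells. *Atg7*-KO;*p62* T352A mice carried Alb-*Cre* and, on both alleles of *Sqstm1* (the p62 gene), a T352A exchange in the KEAP1-interacting region, made by prime editing in embryonic stem cells and present in every cell of the animal. The sex of the mice is not given in the labels. Alb-*Cre* acts in hepatocytes and whole liver was sequenced, so fewer cells of a type and less RNA per cell cannot be told apart in any value below.

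Keratins and tubulins build the 2 filament systems of hepatocytes treated here. Keratin 8 (type II) and keratin 18 (type I) pair obligately into intermediate filaments, and healthy hepatocytes hold little of any other keratin. Both are known components of Mallory-Denk bodies, hepatocyte inclusions that also hold p62 and ubiquitin, and a surplus of keratin 8 over keratin 18 is known to favour these inclusions in mice. α- and β-tubulin pair into the dimers from which microtubules grow, and each family has several genes, called isotypes, whose products differ mostly in the acidic C-terminal tail.

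The targeted gene was lower than in cont. in both genotypes with Alb-*Cre*, but not to the same level, though their labels give the same *Atg7* alleles and Cre. *Atg7* was at 44.2 to 55.4 normalized CPM (counts relative to the library's size, scaled by edgeR's TMM factors) in cont. mice, at 9.6 to 12.0 in *Atg7*-KO mice and at 27.4 to 29.7 in *Atg7*-KO;*p62* T352A animals. It was thus 2.73-fold higher in *Atg7*-KO;*p62* T352A livers than in *Atg7*-KO livers (log2 fold change 1.45 ± 0.17 SE, FDR = 1.6e-04, edgeR quasi-likelihood test with Benjamini-Hochberg adjustment). Against cont., *Atg7* was lower by 2.20 ± 0.17 on the log2 scale in *Atg7*-KO (FDR = 2.5e-05, edgeR) and by 0.75 ± 0.16 in *Atg7*-KO;*p62* T352A livers (FDR = 0.0206). The difference between both Alb-*Cre* genotypes is present in every comparison of them below, and its part in these was not tested. Library totals were 9671073 to 23285134 counts. The mice numbered 1 of each genotype had *Xist*, the RNA of the inactive X chromosome, at 0.4 to 1.4 normalized CPM, against 373 to 2015 in the other 6 mice. The cont. mouse numbered 1 also had the largest library.

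Several of these genes are close copies, which limits how far reads can be assigned to one of them. *Krt8* (chr15:101996698-102004482, minus strand, GRCm38) and *Krt18* (chr15:102028180-102032027, plus strand) are neighbours, but their coding sequences are only 47.2% identical. *Tuba1b*, *Tuba1a* and *Tuba1c* lie within 1 stretch of the same chromosome (chr15:98931425-98934565, chr15:98949837-98953703 and chr15:99029891-99038110), and their coding sequences are 97.1% to 98.3% identical. *Tubb2a* (chr13:34074274-34078007) and *Tubb2b* (chr13:34126748-34130466) are 96.5% identical, while *Tubb5* (chr17:35833921-35838306) is 84.5% and *Tubb6* 83.3% identical to *Tubb2a*. *Krt23* lies at chr11:99477974-99493137. The end of the coding sequence is shown for 3 β-tubulins, since it encodes the C-terminal tail. All of it lies in the coding part of exon 4 of 4. Capitals mark bases that differ from *Tubb2a*, and bases are read 5′ to 3′ on the gene's strand.
Tubb2a (chr13:34074471-34074545, minus): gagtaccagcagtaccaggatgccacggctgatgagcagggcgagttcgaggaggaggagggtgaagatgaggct
Tubb2b (chr13:34127474-34127548, minus): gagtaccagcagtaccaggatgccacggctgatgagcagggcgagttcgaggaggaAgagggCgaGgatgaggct
Tubb5 (chr17:35834985-35835056, minus): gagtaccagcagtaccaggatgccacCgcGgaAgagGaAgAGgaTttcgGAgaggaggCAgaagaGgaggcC
The tail of *Tubb2b* differed from that of *Tubb2a* at 3 of 75 bases, all 3 synonymous, so both encode the same tail, and that of *Tubb5* differed at 14 of 72. Of all stretches of 75 bases, the read length, 68.2% of *Tuba1a*, 71.9% of *Tuba1b* and 56.7% of *Tuba1c* also occurred in a transcript of another gene, most often another *Tuba1* gene. The share was 43.2% for *Tubb2a* and 32.2% for *Tubb2b*, most often with each other, and 22% for *Krt8*, all with the pseudogene *Krt8-ps*. It was 0 for *Krt18*, *Krt23*, *Tubb5* and *Tubb6*. Values of single *Tuba1* genes and of *Tubb2a* and *Tubb2b* are therefore uncertain in how reads were split, and their sums are given too.

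p62 binds KEAP1, which holds back the transcription factor NRF2, and NRF2 binds antioxidant response elements. The core of this element, TGANNNNGC on either strand, was searched from 250 bases before to 50 bases after the start of each gene in RefSeq's promoters of GRCm38.p6. *Tubb2b* and *Tubb6* were not matched. Of the 8 members matched, 3 held the letters, against 41.3% of 32851 promoters. The match farthest from the start, that of *Krt23*, is shown with 10 bases on either side and the looser core in capitals, on the gene's strand.
Krt23 (chr11:99493278-99493306, minus, core on the opposite strand): gtggtaactgGCATATTCAcgtggttcta
The first base of the match lay at -176 in *Krt23*, -91 in *Tuba1a* and -28 in *Tuba1c*, counted from the start. *Krt23* held another match at 23, after the start. After TGA, the match shown for *Krt23* has A and so lacks the usual core, while those of *Tuba1a* and *Tuba1c* have C. A match gives letters only, and the members with and without it are described together below.

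The first comparison asks what loss of *Atg7* in hepatocytes did to these mRNAs. In *Atg7*-KO livers, 9 of the 10 were called DEGs (FDR under 0.05 and fold change over 1.5), all higher, while *Krt18* was not called. Of all genes tested, 43.7% were called, 21.6% higher and 22.1% lower. In the same 9 members all *Atg7*-KO mice were above all cont. mice, as in 29.2% of all genes tested. The log2 fold changes of the members had a median of 1.81, against -0.03 over all genes tested. Among the members, *Tubb2b* passed the filter on low counts only through the *Atg7*-KO mice. Its call here and its call in the next comparison were thus fixed in part by the filter. With p62 T352A in place of wild-type p62 on the same *Atg7*-KO background, 8 of 10 were called lower, where 51.0% of all genes tested were called, 24.7% higher and 26.2% lower, and in 9 of 10 all mice were lower (36.8% of all genes). No member was called when *Atg7*-KO;*p62* T352A was set against cont., where 11.6% of all genes were, 6.25% higher and 5.34% lower. Both comparisons use the same *Atg7*-KO mice, and the first and last share the cont. mice.

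**Figure D1:**
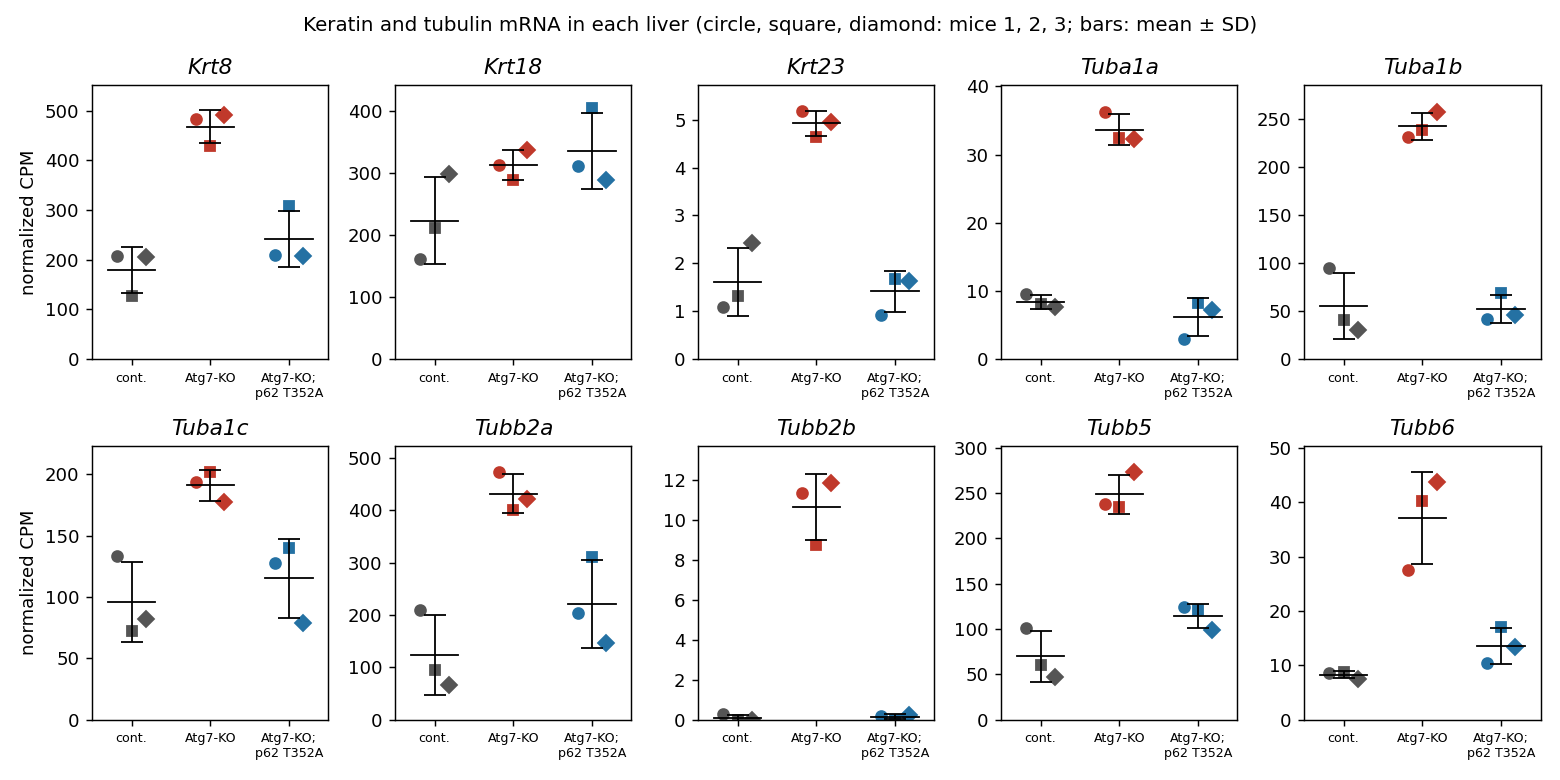
Normalized CPM of each member in every liver (y axes, linear and starting at 0), by genotype (x axes), with mice 1, 2 and 3 as circle, square and diamond and bars for the mean ± SD. In 9 panels the 3 *Atg7*-KO mice lie above all cont. mice, and in the *Krt18* panel the genotypes overlap.

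*Krt8* was at 208, 127 and 204 normalized CPM in the cont. mice numbered 1, 2 and 3, at 483, 429 and 492 in the *Atg7*-KO mice, and at 210, 307 and 208 in the *Atg7*-KO;*p62* T352A mice. All *Atg7*-KO mice were above all mice of both other genotypes. *Krt8* rose 2.60-fold in *Atg7*-KO against cont. (log2 fold change 1.38 ± 0.25 SE, FDR = 0.00186, edgeR) and was 1.94-fold lower in *Atg7*-KO;*p62* T352A livers than in *Atg7*-KO (-0.95 ± 0.25, FDR = 0.00923), a call lost with glmTreat, which tests against the fold threshold itself (FDR = 0.0716). Against cont., *Atg7*-KO;*p62* T352A differed by 0.43 ± 0.24 (FDR = 0.285, edgeR), which was not called.

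*Krt18*, its partner, did not follow. It was at 161, 211 and 299 normalized CPM in cont., at 314, 290 and 337 in *Atg7*-KO and at 312, 405 and 289 in *Atg7*-KO;*p62* T352A animals. The cont. mouse numbered 3 lay within the range of both other genotypes. The log2 fold change was 0.49 ± 0.25 in *Atg7*-KO against cont. (FDR = 0.130, edgeR), 0.10 ± 0.24 when *Atg7*-KO;*p62* T352A was set against *Atg7*-KO (FDR = 0.752) and 0.58 ± 0.25 in *Atg7*-KO;*p62* T352A against cont. (FDR = 0.154). These calls changed with the scaling and with 1 mouse. With library totals only, which put the median of all genes at 0.55 and split the calls in *Atg7*-KO against cont. into 5926 higher and 1103 lower in place of 3006 and 3074, *Krt18* was called higher (1.03, or 0.48 relative to that median, FDR = 0.0117, edgeR). The same scaling put the median at -0.57 when *Atg7*-KO;*p62* T352A was set against *Atg7*-KO, with 1342 calls higher and 6138 lower in place of 3443 and 3652. Without the cont. mouse numbered 3 *Krt18* was called higher in *Atg7*-KO (0.75, FDR = 0.0292) and in *Atg7*-KO;*p62* T352A (0.85, FDR = 0.0449) against cont. Its difference between both *Atg7*-KO genotypes turned negative with upper-quartile scaling (-0.04, with the median of all genes at -0.135). It was also negative with library totals (-0.49, but 0.08 relative to that median) and without the *Atg7*-KO;*p62* T352A mouse numbered 2 (-0.06).

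A ratio within a library needs no scaling, so *Krt8* was set against *Krt18* in each mouse, both in normalized CPM per kb of transcript. The ratio was 0.947, 0.440 and 0.501 in the cont. mice numbered 1, 2 and 3. It was 1.13, 1.09 and 1.07 in *Atg7*-KO and 0.493, 0.556 and 0.528 in *Atg7*-KO;*p62* T352A mice. *Krt8* mRNA thus exceeded *Krt18* mRNA per length in the 3 *Atg7*-KO livers and in no other. Of read-length stretches, 22% of those of *Krt8* also occur in *Krt8-ps*, against 0 for *Krt18*. Whether a ratio near 1 lies above it can therefore depend on how reads were split. By geometric means the ratio was 1.85-fold higher in *Atg7*-KO (arithmetic mean 1.10 ± 0.0305, SD, n = 3) than in cont. (0.630 ± 0.276, SD, n = 3) and 2.09-fold higher than in *Atg7*-KO;*p62* T352A livers (0.526 ± 0.0315, SD, n = 3), with p = 0.1 in either two-sided exact permutation test, the smallest that 3 against 3 mice allow. *Atg7*-KO;*p62* T352A and cont. overlapped (exact permutation p = 0.9). The cont. mouse numbered 1 was nearest to *Atg7*-KO, and without it the log2 difference between *Atg7*-KO and cont. rose from 0.88 to 1.22.

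**Figure D2:**
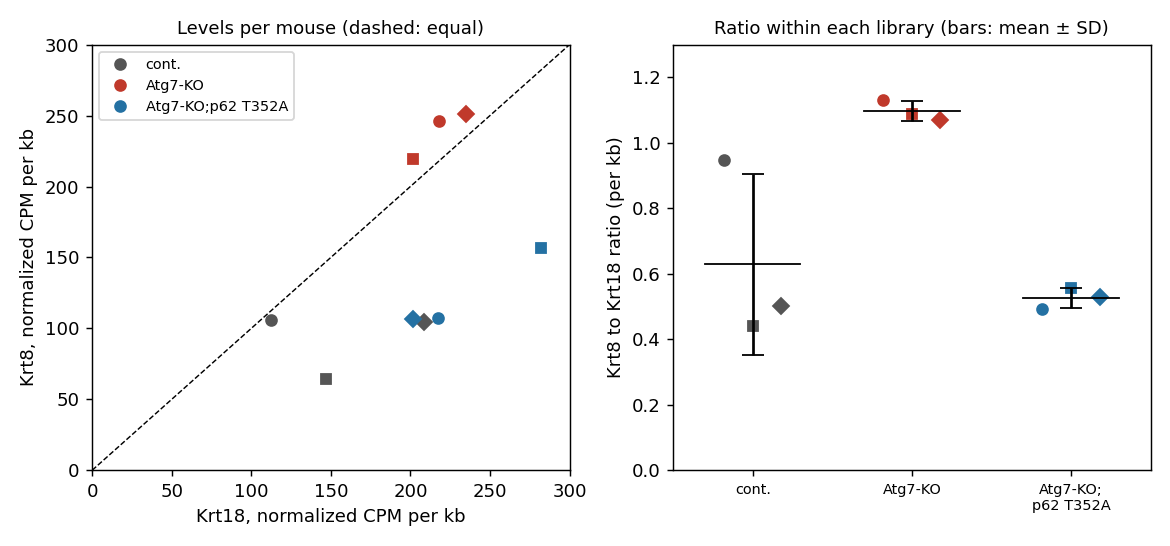
Left, *Krt8* (y axis) against *Krt18* (x axis) in normalized CPM per kb, 1 point per liver, with a dashed line of equal levels. Right, their ratio in each library by genotype, with bars for the mean ± SD. The 3 *Atg7*-KO livers, at 1.07 to 1.13, are the only points above the line.

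*Krt23* encodes a type I keratin that is scarce in normal liver. It was at 1.09, 1.32 and 2.42 normalized CPM in cont., at 5.17, 4.64 and 4.95 in *Atg7*-KO and at 0.93, 1.68 and 1.63 in *Atg7*-KO;*p62* T352A mice, from 13 to 116 counts per library. Again all *Atg7*-KO mice were above all others. It rose 3.13-fold in *Atg7*-KO against cont. (log2 fold change 1.65 ± 0.34 SE, FDR = 0.00399, edgeR) and was 3.46-fold lower in *Atg7*-KO;*p62* T352A livers than in *Atg7*-KO (-1.79 ± 0.34, FDR = 0.00196). Per kb of transcript, *Krt23* in *Atg7*-KO livers reached 3.15 ± 0.170 CPM (SD, n = 3), far under *Krt8* at 239 ± 17.2 and *Krt18* at 218 ± 16.6.

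The 3 α-tubulin genes all rose in *Atg7*-KO livers. *Tuba1b*, the α-tubulin with the steepest increase among them, was at 94.7, 40.8 and 30.1 normalized CPM in cont., at 231, 238 and 258 in *Atg7*-KO and at 41.3, 68.4 and 46.2 in *Atg7*-KO;*p62* T352A animals. Its cont. mouse numbered 1 was above all *Atg7*-KO;*p62* T352A mice but far under the *Atg7*-KO mice. *Tuba1b* rose 4.38-fold in *Atg7*-KO (log2 fold change 2.13 ± 0.40 SE, FDR = 0.00220, edgeR) and was 4.66-fold lower in *Atg7*-KO;*p62* T352A livers than in *Atg7*-KO (-2.22 ± 0.40, FDR = 0.00144).

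*Tuba1a*, an α-tubulin best known from neurons, was at 9.57, 8.04 and 7.58 normalized CPM in cont., at 36.3, 32.4 and 32.3 in *Atg7*-KO and at 3.00, 8.27 and 7.18 in *Atg7*-KO;*p62* T352A mice. All *Atg7*-KO mice were above all others, and the *Atg7*-KO;*p62* T352A mouse numbered 1 was the lowest of the 9. *Tuba1a* rose 3.99-fold in *Atg7*-KO (2.00 ± 0.31, FDR = 9.1e-04, edgeR) and was 5.46-fold lower in *Atg7*-KO;*p62* T352A livers than in *Atg7*-KO (-2.45 ± 0.32, FDR = 2.9e-04). *Tuba1c* moved least. It was at 133, 72.6 and 82.2 normalized CPM in cont., at 194, 202 and 177 in *Atg7*-KO and at 128, 140 and 78.7 in *Atg7*-KO;*p62* T352A mice, again with all *Atg7*-KO mice on top. The log2 fold change of *Tuba1c* was 0.99 ± 0.28 in *Atg7*-KO against cont. (FDR = 0.0165, edgeR) and -0.73 ± 0.28 when *Atg7*-KO;*p62* T352A was set against *Atg7*-KO (FDR = 0.0488). Neither call was firm. The first was lost without the cont. mouse numbered 2 (0.73, FDR = 0.102) or 3 (0.88, FDR = 0.0544) and without the *Atg7*-KO mouse numbered 2 (0.95, FDR = 0.0543) and with glmTreat (FDR = 0.0919), and the second under 10 of 18 alternatives.

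Summed, which sets aside how reads were split between them, *Tuba1a*, *Tuba1b* and *Tuba1c* were at 238, 122 and 120 normalized CPM in cont., at 461, 473 and 467 in *Atg7*-KO and at 172, 216 and 132 in *Atg7*-KO;*p62* T352A mice. All *Atg7*-KO mice were above all others. The log2 fold change of the sum was 1.55 ± 0.30 in *Atg7*-KO against cont. (FDR = 0.00269, edgeR), -1.43 ± 0.30 when *Atg7*-KO;*p62* T352A was set against *Atg7*-KO (FDR = 0.00317) and 0.12 ± 0.29 in *Atg7*-KO;*p62* T352A against cont. (FDR = 0.832).

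Among the β-tubulins, *Tubb2a* had the highest mean level per length in each genotype, at 76.9 CPM per kb in cont. livers, 268 with *Atg7*-KO and 137 with *Atg7*-KO;*p62* T352A. It was at 210, 95.6 and 66.2 normalized CPM in cont., at 473, 401 and 421 in *Atg7*-KO and at 204, 311 and 147 in *Atg7*-KO;*p62* T352A animals. It rose 3.48-fold in *Atg7*-KO against cont. (log2 fold change 1.80 ± 0.42 SE, FDR = 0.00694, edgeR). In *Atg7*-KO;*p62* T352A livers all 3 mice were under all *Atg7*-KO mice, but the difference of -0.97 ± 0.41 was not called (FDR = 0.0709). It was called without the cont. mouse numbered 1 (-0.96, FDR = 0.00863), without the cont. mouse numbered 3 (-0.96, FDR = 0.0394), without the *Atg7*-KO;*p62* T352A mouse numbered 2 (-1.29, FDR = 0.0456) and by DESeq2 (-1.00, adjusted p = 0.0439).

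*Tubb2b*, known from the developing nervous system, was close to absent outside *Atg7*-KO livers. It passed the filter on low counts only through the *Atg7*-KO mice, so its call in that direction was fixed in part by the filter. It had 5, 0 and 0 counts in cont., 235, 213 and 278 in *Atg7*-KO and 3, 0 and 4 in *Atg7*-KO;*p62* T352A mice. All *Atg7*-KO mice were thus far above all others. With counts pooled over the mice of a genotype and divided by the scaled library sizes, *Atg7*-KO was 78.8-fold above cont. (95% exact binomial interval 33.6 to 243, counting error only) and 66.1-fold above *Atg7*-KO;*p62* T352A (31.9 to 165). Both differences were called (FDR = 1.7e-04 and 1.5e-04, edgeR). *Tubb2b* counts were 2.18% to 2.82% of *Tubb2a* counts in *Atg7*-KO mice and at most 0.178% in the other 6, so the ratio of both genes' counts differed between genotypes. Their sum was at 210, 95.6 and 66.2 normalized CPM in cont., at 484, 410 and 433 in *Atg7*-KO and at 205, 311 and 147 in *Atg7*-KO;*p62* T352A mice, with log2 fold changes of 1.83 (FDR = 0.00637, edgeR) in *Atg7*-KO against cont. and -1.00 (FDR = 0.0632, not called) when *Atg7*-KO;*p62* T352A was set against *Atg7*-KO.

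*Tubb5*, the most widely used β-tubulin, shares no read-length stretch with another gene. It was at 101, 60.9 and 47.5 normalized CPM in cont., at 238, 234 and 274 in *Atg7*-KO and at 124, 121 and 99.0 in *Atg7*-KO;*p62* T352A animals. It rose 3.55-fold in *Atg7*-KO (1.83 ± 0.27, FDR = 6.7e-04, edgeR) and was 2.17-fold lower in *Atg7*-KO;*p62* T352A livers than in *Atg7*-KO (-1.12 ± 0.27, FDR = 0.00624). *Tubb6*, a divergent β-tubulin of broad but low expression, likewise shares no stretch. It was at 8.65, 8.70 and 7.58 normalized CPM in cont., at 27.6, 40.3 and 43.7 in *Atg7*-KO and at 10.5, 17.0 and 13.3 in *Atg7*-KO;*p62* T352A animals. The 3 genotypes did not overlap. *Tubb6* rose 4.47-fold in *Atg7*-KO (2.16 ± 0.24, FDR = 1.6e-04, edgeR) and was 2.73-fold lower in *Atg7*-KO;*p62* T352A livers than in *Atg7*-KO (-1.45 ± 0.23, FDR = 8.2e-04).

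**Figure D3:**
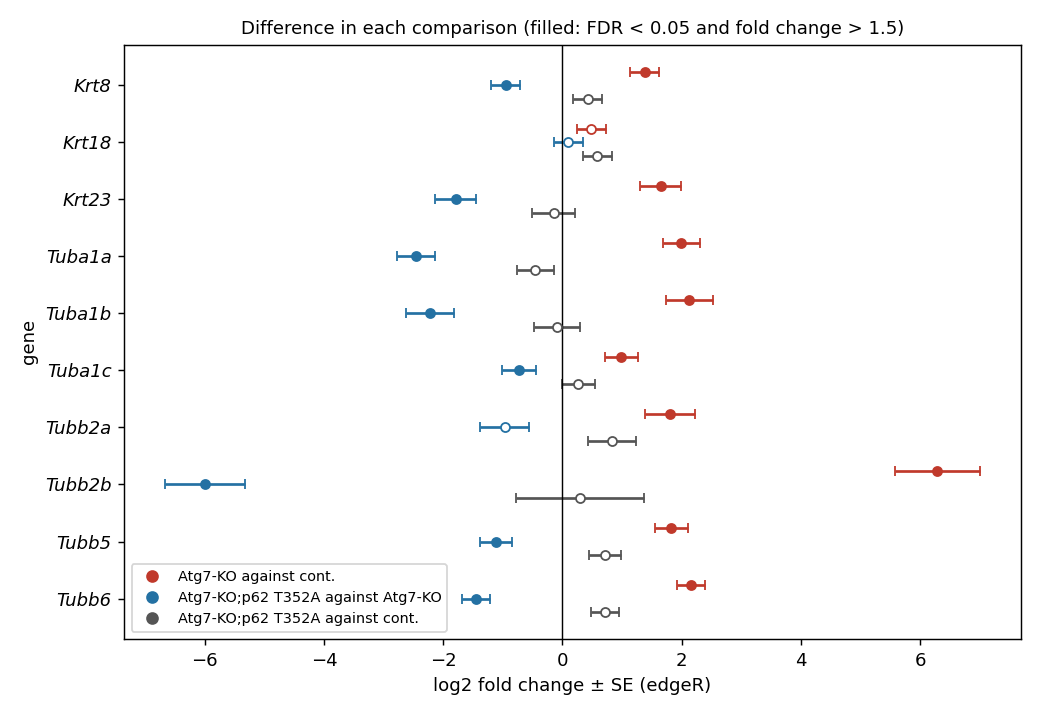
Log2 fold change ± SE (x axis, edgeR) of each member (y axis) in the 3 comparisons, with filled points for calls at FDR under 0.05 and fold change over 1.5. All points of *Atg7*-KO against cont. lie right of 0, all but *Krt18* of *Atg7*-KO;*p62* T352A against *Atg7*-KO lie left of it, and no point of *Atg7*-KO;*p62* T352A against cont. is filled.

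Against cont., the *Atg7*-KO;*p62* T352A livers had 0 of 10 members called by edgeR and 0 by DESeq2, while 3 had an unadjusted p under 0.05 in edgeR. These 3 were *Krt18*, *Tubb5* (0.71 ± 0.26, FDR = 0.111) and *Tubb6* (0.71 ± 0.24, FDR = 0.0807), all with a positive difference. The share of all genes under this unadjusted threshold is not given here, so the count does not set the members apart. A call missed at this number of mice does not show equal levels. Only *Tubb6* and *Krt8* were higher in all 3 mice than in all cont. mice, the latter with its nearest mice of both genotypes at 208 CPM, against 15.5% of all genes tested. The mice numbered 1 weighed on this comparison. With the mice numbered 2 and 3 alone, *Tubb2a* (1.5, FDR = 0.0227), *Tubb5* (1.02, FDR = 0.0153) and *Tubb6* (0.90, FDR = 0.0179) were called higher, where 9.35% of all genes tested were called higher and 21.2% in either direction. Without the cont. mouse numbered 1 alone, *Tubb2a* (1.45, FDR = 0.00904) and *Tubb5* (1.08, FDR = 0.00347) were, beside 10.7% of all genes called higher and 22.8% in either direction. More genes were thus called over the whole table too.

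The composition of tubulin mRNA is described here with no test, from CPM per kb of each gene's longest coding transcript. Of 8 α-tubulin genes, *Tuba4a* gave 40.5% to 47.6% of the sum in cont., 17.1% to 19.4% in *Atg7*-KO mice, with 37.6% to 44.5% for *Atg7*-KO;*p62* T352A. *Tuba1b* gave 16.0% to 24.5%, 40.8% to 45.3% and 15.8% to 21.1%, so it was the leading α-tubulin in the 3 *Atg7*-KO mice as *Tuba4a* was in cont. mice. *Tuba1c* gave 29.4% to 38.5%, 27.4% to 30.9% and 31.6% to 42.8%, with overlap between cont. and both other genotypes. Of 8 β-tubulin genes, *Tubb2a* gave 36.3% to 47.5% in cont., 44.7% to 50.4% in *Atg7*-KO mice, with 45.7% to 52.0% for *Atg7*-KO;*p62* T352A, and *Tubb5* gave 11.8% to 19.2% over all mice, with overlap between genotypes for both. *Tubb4b*, the next in mean share, gave 36.7% to 43.1% in cont. and 30.5% to 34.2% in *Atg7*-KO mice, without overlap, and 26.0% to 35.1% for *Atg7*-KO;*p62* T352A. *Tubb2b* gave at most 0.0479% in cont. and 0.722% to 0.930% in *Atg7*-KO mice. The summed α-tubulin level was 0.807 to 0.953 of the summed β-tubulin level in cont. and 0.558 to 0.593 in *Atg7*-KO mice, without overlap, with 0.562 to 0.632 for *Atg7*-KO;*p62* T352A. With median in place of longest transcripts the shares of *Tuba4a* were higher (40.9% to 44.7% in *Atg7*-KO against 69.6% to 75.3% in cont.), and it then led in *Atg7*-KO too, at 28.0% to 32.3% for *Tuba1b*. The drop in its share and the gain of *Tuba1b* were without overlap under both lengths. The ratio of summed α- to β-tubulin depended on the length used: with median transcripts it was 1.5 to 1.71 in cont., 0.713 to 0.767 in *Atg7*-KO mice and 1.05 to 1.11 for *Atg7*-KO;*p62* T352A, so the cont. values lay above 1 and *Atg7*-KO;*p62* T352A no longer overlapped with *Atg7*-KO.

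**Figure D4:**
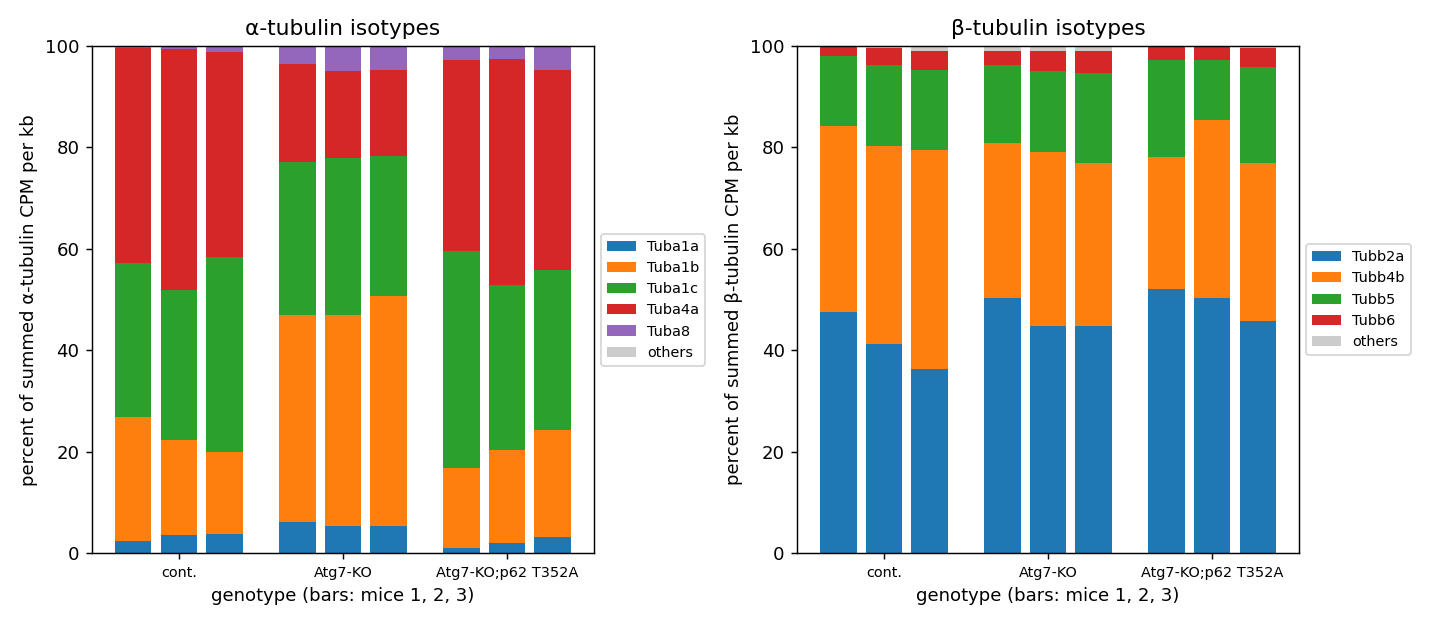
Share of each isotype in the summed CPM per kb (y axes, percent) of α-tubulin genes (left) and β-tubulin genes (right), 1 bar per mouse, grouped by genotype. *Tuba1b* takes 40.8% to 45.3% of the α-tubulin bars of *Atg7*-KO mice and at most 24.5% elsewhere, and *Tubb4b* takes 30.5% to 34.2% of the β-tubulin bars of *Atg7*-KO mice and 36.7% to 43.1% of those of cont. mice.

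Of the 12 other genes named *Tuba*, *Tubb*, *Tubd*, *Tube* or *Tubg* with a number, a rule that leaves out the α-tubulin gene *Tubal3*, 8 were tested. In *Atg7*-KO against cont. 3 of them were called higher and 5 not called (median log2 fold change 0.45), beside 21.6% of all genes tested called higher and 22.1% lower. The largest rise was that of *Tuba8*, an α-tubulin known from muscle and testis, at 2.06, 1.23 and 2.75 normalized CPM in cont., 26.5, 36.3 and 34.5 in *Atg7*-KO and 9.35, 12.4 and 13.5 in *Atg7*-KO;*p62* T352A animals. The genotypes did not overlap. *Tuba8* was called in each comparison, at 4.01 ± 0.30 (FDR = 2.2e-05, edgeR) in *Atg7*-KO and 2.55 ± 0.29 (FDR = 0.00322) in *Atg7*-KO;*p62* T352A against cont., and at -1.46 ± 0.25 (FDR = 0.00125) between both. The other 2 called, named after their values were seen, were *Tubb4b* (1.44, FDR = 0.00951, edgeR), of whose stretches 37.8% also occur elsewhere, most often in the pseudogene *Tubb4b-ps1*, and the neuronal *Tubb3* (2.49, FDR = 0.0296) at 0.55 to 0.86 CPM in *Atg7*-KO mice, which alone took it past the filter. *Tuba4a*, also named afterwards, was at 124 to 266 normalized CPM in cont. and 158 to 179 in *Atg7*-KO mice (-0.16 ± 0.32, FDR = 0.696, edgeR). With *Atg7*-KO;*p62* T352A set against *Atg7*-KO, 3 of these 8 were called lower and 1 higher, the γ-tubulin gene *Tubg1* (0.61, FDR = 0.0421, named afterwards too), and against cont. *Tuba8* alone was called. Of all genes tested, 26.2% were called lower and 24.7% higher in the former comparison and 11.6% in either direction in the latter.

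Of 49 other keratin genes, 6 were tested. In *Atg7*-KO against cont. 4 were called higher and 1 lower, and when *Atg7*-KO;*p62* T352A was set against *Atg7*-KO 4 were called lower and 1 higher, while in *Atg7*-KO;*p62* T352A against cont. 0 were called by edgeR and 0 by DESeq2 (2 at an unadjusted p under 0.05 in edgeR, *Krt19* and *Krt10*). *Krt19*, which marks cholangiocytes, was at 0.95 to 2.31 normalized CPM in cont., 6.44 to 7.85 in *Atg7*-KO mice, with 2.07 to 3.20 for *Atg7*-KO;*p62* T352A (2.39 ± 0.35 in *Atg7*-KO against cont., FDR = 6.6e-04, edgeR). *Krt7*, its cholangiocyte partner, was at 0.57 to 2.53 in cont. and 1.88 to 2.85 in *Atg7*-KO mice (0.98 ± 0.53, FDR = 0.150). *Krt10*, a keratin of differentiated epidermis, fell by 1.82 ± 0.24 on the log2 scale (FDR = 3.9e-04), from 3.04 to 3.85 CPM in cont. to 0.82 to 1.15 in *Atg7*-KO mice, and was at 4.78 to 5.55 in *Atg7*-KO;*p62* T352A animals. The other 3 called, *Krt4*, *Krt5* and *Krt79*, named after their values were seen, are known from stratified epithelia and skin and were at 0.86 to 1.79 CPM in *Atg7*-KO mice and at most 0.21 elsewhere. These 3 passed the filter on low counts only through the *Atg7*-KO mice, so being tested and called higher was fixed in part by their level there, and the counts above do not speak for the keratin family.

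Genes whose products work with these filaments are read against the 21.6% of all genes called higher and 22.1% called lower in *Atg7*-KO against cont. Of the 13 tested plakin and desmosome genes, which tie keratin to junctions, 2 passed the test as higher and 1 as lower in *Atg7*-KO against cont. *Dsp* (desmoplakin) had the largest rise meeting the level and overlap criteria (0.91 ± 0.27, FDR = 0.0216, edgeR) and was lower in *Atg7*-KO;*p62* T352A livers than in cont. (-1.22 ± 0.28, FDR = 0.0242). Of 20 genes of tubulin folding (chaperonin, prefoldin and cofactors), 2 passed the test as higher and 4 as lower in *Atg7*-KO, with the prefoldin subunits *Vbp1* (1.18 ± 0.39, FDR = 0.0307) and *Pfdn6* (-1.28 ± 0.29, FDR = 0.00606) at the ends. Neither list had a larger share of calls than all genes in either direction. With *Atg7*-KO;*p62* T352A set against *Atg7*-KO, 8 of these 20 were called higher and 3 lower, and 8 of the 10 keratin and tubulin members were called lower. In this comparison 24.7% of all genes tested were called higher and 26.2% lower.

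Of 14 tested enzymes of tubulin modification, 3 passed the test as higher and 2 as lower in *Atg7*-KO against cont. *Ttll7*, a polyglutamylase of β-tubulin tails, was at 1.65 to 1.95 normalized CPM in cont., 13.9 to 15.2 in *Atg7*-KO mice, with 0.91 to 1.40 for *Atg7*-KO;*p62* T352A. It rose by 3.00 ± 0.22 on the log2 scale in *Atg7*-KO (FDR = 2.0e-05, edgeR) and was 12.3-fold lower in *Atg7*-KO;*p62* T352A (FDR = 1.9e-05). *Hdac6*, the tubulin deacetylase, fell by 1.48 ± 0.29 in *Atg7*-KO (FDR = 0.00300). Of 26 tested microtubule-binding and motor genes, 8 were called higher and 2 lower, with *Stmn1*, whose product stathmin binds free tubulin dimers, at 5.61 to 7.39 normalized CPM in cont., 42.8 to 64.3 in *Atg7*-KO mice, with 7.57 to 21.3 for *Atg7*-KO;*p62* T352A (3.08 ± 0.37 in *Atg7*-KO, FDR = 2.1e-04). The kinesin light chain gene *Klc4* had the largest fall (-1.39 ± 0.32, FDR = 0.00617).

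Among 7 tested genes of other intermediate filaments, 4 were called higher and 3 not called in *Atg7*-KO against cont., led by *Vim*, the filament of mesenchymal and immune cells, at 20.5 to 28.1 normalized CPM in cont., 86.1 to 94.4 in *Atg7*-KO mice, with 27.2 to 44.8 for *Atg7*-KO;*p62* T352A (1.93 ± 0.23, FDR = 2.2e-04, edgeR). Of these 4, *Synm*, named afterwards, passed the filter on low counts only through the *Atg7*-KO mice. Its call was thus fixed in part by the filter. Over all genes tested, 21.6% were called higher and 22.1% lower. Of 18 actin genes and regulators, 11 were called higher and 7 not called, with the largest rise for tropomyosin 1, *Tpm1* (1.85 ± 0.19, FDR = 9.2e-05). Of 11 genes of other Mallory-Denk body proteins, 6 were called higher and 5 not called in *Atg7*-KO. The ubiquitin-like modifier *Ubd* was at 0.33 to 0.86 normalized CPM in cont., 125 to 143 in *Atg7*-KO mice, with 2.87 to 12.4 for *Atg7*-KO;*p62* T352A (7.77 ± 0.61 in *Atg7*-KO, FDR = 3.0e-05). *Sqstm1*, whose product is p62, was at 314 to 505, 871 to 960 and 497 to 626 normalized CPM in the 3 genotypes (1.24 ± 0.22 in *Atg7*-KO against cont., FDR = 0.00189). With *Atg7*-KO;*p62* T352A set against *Atg7*-KO, 5 of these 11 were called lower and 6 not called, beside 26.2% of all genes tested called lower.

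The summed markers of most other liver cells were also highest in *Atg7*-KO mice, but those of endothelial cells were not. The part of these markers in the results was not tested. The summed CPM of 11 cholangiocyte markers, cells rich in *Krt8* and *Krt18*, was 69.4 to 80.3 in cont., 916 to 1088 in *Atg7*-KO mice, with 214 to 310 for *Atg7*-KO;*p62* T352A. Of the 10 tested, 8 were called higher in *Atg7*-KO, beside 21.6% of all genes tested. *Spp1* (osteopontin) alone made up 35.1% to 59.1% of the sum in cont. and 83.7% to 88.9% in *Atg7*-KO mice, and without it the sums were 29.8 to 46.5 in cont., 121 to 170 in *Atg7*-KO mice and 65.6 to 83.0 for *Atg7*-KO;*p62* T352A. *Cftr* rose most, from 0 to 0.11 normalized CPM in cont. to 2.94 to 4.93 in *Atg7*-KO mice, and *Epcam* was at 0.77 to 1.26, 15.5 to 19.7 and 2.86 to 4.05 normalized CPM. The 14 markers of dividing cells, which make much tubulin, were all called higher in *Atg7*-KO (21.6% of all genes tested) and all called lower when *Atg7*-KO;*p62* T352A was set against *Atg7*-KO (26.2% of all genes tested), with sums of 14.8 to 28.7 in cont. and 172 to 302 in *Atg7*-KO mice and with 30.0 to 71.0 for *Atg7*-KO;*p62* T352A. Cyclin B1, *Ccnb1*, rose most (4.90 ± 0.78, FDR = 9.7e-04, edgeR), and *Mki67* was at 1.38 to 5.17, 21.6 to 39.4 and 2.14 to 8.75 normalized CPM.

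Markers of mesenchymal and immune cells rose in *Atg7*-KO as well. The counts called in *Atg7*-KO against cont. are read against 21.6% of all genes tested called higher and 22.1% lower. Of 12 stellate cell markers 9 were called higher (sum 297 to 360 in cont. and 1076 to 1269 in *Atg7*-KO mice), of 11 macrophage markers 9 higher and 1 lower (293 to 430 and 1152 to 1223), and of 10 lymphocyte and neutrophil markers 7 higher (17.0 to 36.6 and 70.9 to 80.0). The leading rises were those of *Timp1* (0 to 0.06 CPM in cont. and 3.78 to 4.95 in *Atg7*-KO mice), *Gpnmb* (0 to 0.22 and 17.4 to 19.8) and *Cd8a* (3.89 ± 0.49, FDR = 2.7e-04, edgeR). The macrophage marker that fell was *Timd4* (-1.31 ± 0.28, FDR = 0.00453), a marker of resident Kupffer cells. Other Kupffer cell markers of the list, named after their values were seen, did not fall. *Cd5l* (1.75 ± 0.30, FDR = 0.00159, edgeR) and *Vsig4* (1.48 ± 0.37, FDR = 0.0102) were called higher, and *Clec4f* (0.48 ± 0.24, FDR = 0.128) was not called. The list sums in *Atg7*-KO;*p62* T352A mice were 438 to 727, 202 to 393 and 27.9 to 33.1. Of 9 endothelial markers, 3 were called higher, most of all *Lyve1* (1.57 ± 0.24, FDR = 7.3e-04), and 1 lower, *Stab2* (-1.19 ± 0.29, FDR = 0.00874), in *Atg7*-KO (sum 355 to 393 in cont. and 355 to 367 in *Atg7*-KO mice, but 178 to 216 in *Atg7*-KO;*p62* T352A mice). Of 12 hepatocyte markers, 8 were called lower and 4 not called in *Atg7*-KO, and 8 were called higher and 4 not called when *Atg7*-KO;*p62* T352A was set against *Atg7*-KO, where 24.7% of all genes tested were called higher. *Serpina1a*, which encodes α1-antitrypsin, fell most among them (-1.88 ± 0.22, FDR = 2.1e-04, edgeR), and *Alb* was at 44371 to 91863, 24669 to 27313 and 74513 to 84968 normalized CPM. No marker was at 0 counts in every mouse, while *Cftr*, *Timp1* and *Gpnmb* were among those at 0 in at least 1. *Cftr*, *Timp1* and *Cd8a* passed the filter on low counts only through the *Atg7*-KO mice.

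**Figure D5:**
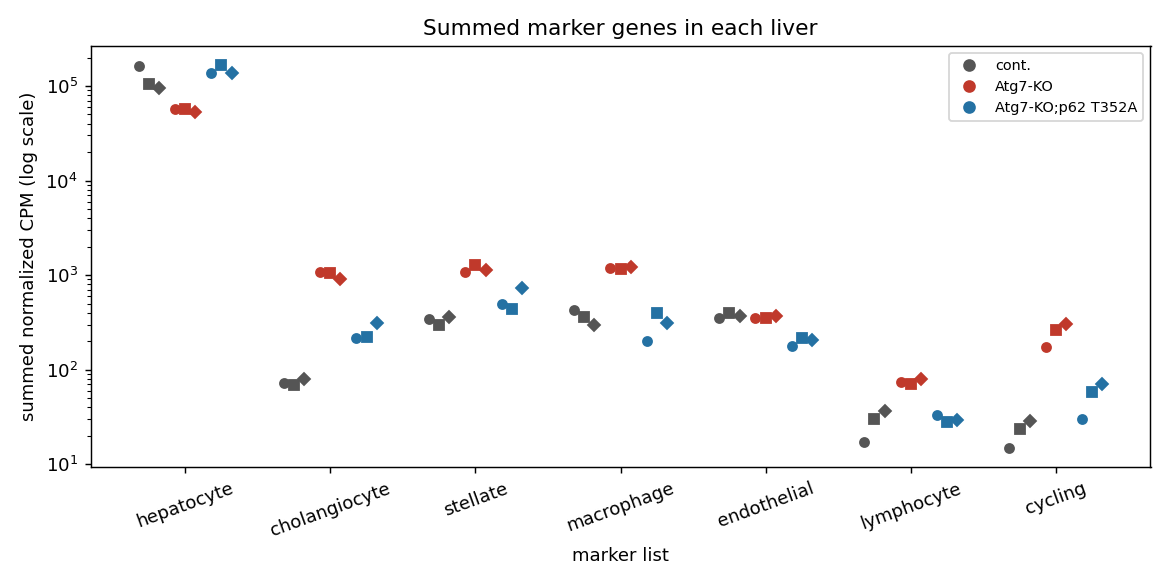
Summed normalized CPM (y axis, log scale) of each list of marker genes (x axis) in every liver, with mice 1, 2 and 3 as circle, square and diamond. The lists for cholangiocytes and dividing cells are highest in the 3 *Atg7*-KO mice, at 916 to 1088 and 172 to 302, and the hepatocyte list is lowest there.

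Likeness was measured as the root mean square difference over the 9 mice between log2 CPM values, each gene centred on its own mean, so a smaller value is a closer pattern. Among 8501 genes with a mean of at least 10 CPM and apart from the members, *Krt8* was nearest to *Fth1* (0.13), the ferritin heavy chain, *Pir* (0.13), which encodes the iron-binding protein pirin, and *Tmem176b* (0.17). *Krt18* was nearest to *Arpp19* (0.13), *Psme2* (0.15) and *Actb* (0.15), the latter encoding β-actin. *Krt23* was nearest to *Gas6* (0.16), *Ezr* (0.19), which encodes the membrane-actin linker ezrin, and *Anxa3* (0.21). The mean pattern of the 7 tubulins was nearest to *Rhoc* (0.13), *Ehd4* (0.13) and *Slc48a1* (0.18). Between members, *Tubb2a* and *Tubb5* were closest (0.27), followed by *Krt8* and *Tuba1c* (0.29), whereas *Krt8* and *Krt18*, whose products pair, were 0.54 apart.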

How the data were processed

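The authors sequenced polyadenylated liver RNA with single-end reads of 75 bases, and 9 livers are analysed here. The deposited table holds expected counts per gene, made with Trim Galore, STAR and RSEM on mm10 per the labels, with no scaling. Versions, annotation and strand setting are not given in the sources used here, and 3 *p62* T352A mice with labels were not analysed here. The expected counts were rounded. Columns were mapped to mice by genotype and number. The 3 genotypes were fitted in 1 edgeR 4.0.16 quasi-likelihood model (R 4.3.3) after filterByExpr and TMM, with Benjamini-Hochberg adjustment over 13922 genes. The thresholds are those of the study.

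The members and lists were chosen with earlier results of these data known. Named are all members, per list the largest called rise and fall in *Atg7*-KO (mean of at least 1 CPM, no overlap between mice), defining markers and the 3 nearest patterns per keratin and for the tubulin mean (log2 CPM, prior count 2). Gene models are those of GENCODE (GRCm38, the build also called mm10), promoters those of RefSeq. Permutation tests were two-sided and exact (scipy). The edgeR test of *Atg7*-KO against cont. was tried on simulated counts with known changes. Alternatives were DESeq2 1.42.0, DESeq2's size factors, upper-quartile scaling, at least 10 counts in every mouse, no filter, glmTreat, the mouse number as a block, mice numbered 2 and 3 only, median transcript lengths, each mouse left out and, added after seeing the data, library totals only. Some sequences and a marker gene are not reported here.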

Additional observations from a re-analysis of the deposited data

Results flagged for a closer look

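The difference between *Atg7*-KO;*p62* T352A and cont. mice was not the same for the mice numbered 1 as for those numbered 2 and 3 in many genes: 13.8% of all 13922 genes tested passed this interaction (FDR under 0.05, edgeR), and 2 of the 10 members did, so this is not particular to the members. A further member had opposite directions but did not pass. For *Tuba1b* the log2 difference was -1.19 between the mice numbered 1 and between 0.18 and 1.18 for the other pairs, an interaction of -1.88 (FDR = 0.0262, edgeR with genotype by number 1). For *Tuba1a* it was -1.64 between the mice numbered 1 and -0.16 to 0.12 otherwise, an interaction of -1.65 (FDR = 0.0159, edgeR). For *Tubb2a* it was -0.04 against 0.61 to 2.23, in opposite directions, but the interaction of -1.54 did not pass (FDR = 0.120, edgeR). Each value of the mice numbered 1 rests on 1 mouse per genotype. These mice had *Xist* at 0.4 to 1.4 normalized CPM, against 373 to 2015 in the other 6, and the part of this in the difference was not tested. Groups of 3 are too small for a test of single outlying mice.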

How the results depend on the processing

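The members called in *Atg7*-KO against cont. (8 to 9 with any mouse left out) and with *Atg7*-KO;*p62* T352A set against *Atg7*-KO (7 to 9) stayed within 8 to 10 and 6 to 9 over all alternatives. The share of all genes tested that was called ran from 27.7% to 56.0% and from 33.9% to 57.3%. Both shares were lowest with glmTreat and highest without the cont. mouse numbered 1. Against cont., *Atg7*-KO;*p62* T352A had 1 member called with library totals only, 3 with the mice numbered 2 and 3, and 0 to 2 with any mouse left out. The shares of all genes tested that were called were 10.0%, 21.2% and 3.07% to 22.8%. The sum of *Tubb2a* and *Tubb2b* with *Atg7*-KO;*p62* T352A set against *Atg7*-KO, not called at first, was called with DESeq2 (-1.03), upper-quartile scaling (-1.14), library totals (-1.60), at least 10 counts in every mouse (-1.08) and the replicate block (-1.05), and ranged from -1.33 to -0.77 with any mouse left out. Against cont. it was called with the mice numbered 2 and 3 (1.5), and ranged from 0.50 to 1.45 with any mouse left out. The sum of the 3 *Tuba1* genes in *Atg7*-KO;*p62* T352A against cont. changed sign within -0.13 to 0.52 with any mouse left out. The log2 *Krt8* to *Krt18* ratio in the same comparison was 0.21 with the mice numbered 2 and 3 and -0.39 to 0.16 with any mouse left out.

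Values that were not called and changed sign were, with *Atg7*-KO;*p62* T352A set against *Atg7*-KO, *Krt18* with upper-quartile scaling (-0.040, with the median of all genes at -0.135), library totals (-0.49, with that median at -0.574) and any mouse left out (-0.056 to 0.20). In *Atg7*-KO;*p62* T352A against cont. they were *Krt23* without the cont. mouse numbered 3 (0.24) or the *Atg7*-KO;*p62* T352A mouse numbered 1 (0.079), with -0.38 to 0.24 for any mouse left out, *Tubb2b* without the cont. mouse numbered 2 (-0.25) or 3 (-0.11) or the *Atg7*-KO;*p62* T352A mouse numbered 3 (-0.26), with -0.26 to 4.47 for any mouse left out, and *Tuba1b*, at 0.0048 with the replicate block, 0.69 with the mice numbered 2 and 3 and -0.39 to 0.55 with any mouse left out, being positive without the cont. mouse numbered 1 and, at 0.05, without the *Atg7*-KO;*p62* T352A mouse numbered 1. The cause was not tested in any of these.

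Mouse numbers were not used as pairs, since not every pair of same-numbered mice deviated together: deviations from genotype means correlated at 0.14 to 0.27 for the number 1 and 0.18 to 0.32 for 3, but at -0.20 to 0.09 for 2. Of the 9 mice, 6 correlated best with their own number, a hint of shared structure from the data and not from the labels. With the replicate block, 9, 9 and 0 members were called in the 3 comparisons in the order above. Of all genes tested, 41.3%, 50.2% and 7.1% were called. *Tubb2a* was added in the second comparison (-1.02, FDR = 0.0448, edgeR). The *Krt8* to *Krt18* differences were 0.88, -1.06 and -0.18 (exact sign-flip p = 0.25, 0.25 and 1, where 0.25 is the smallest possible).

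Counting depth limits *Tubb2b* outside *Atg7*-KO mice (0 to 5 counts) and *Krt23*. *Tubb2b* had no value under at least 10 counts in every mouse.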
